A study of Mus musculus with 24 samples.

Results

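The genes described here are 38 genes of DNA replication, the cell cycle and mitosis, chosen by gene symbol from the count table of 55487 genes. All 38 symbols were found, and all 38 passed the filter on low counts that left 21286 genes for testing. RNA was sequenced in bulk from 4 innate lymphoid cell (ILC) populations sorted out of mouse small-intestinal lamina propria, labelled ILC1, NKp46, CCR6 and DN, and the title of the series speaks of ILC1 and of ILC3 subsets. Mice were 8 to 12 weeks old. The DKO groups carried Vav1-Cre with floxed Nr1d1 and Nr1d2, and the WT groups were fl/fl littermates, for which the labels name no Cre. Every mouse in both groups therefore carried the floxed alleles, and Vav1 drives Cre in all blood lineages and not only in ILCs. There were 3 libraries in each of the 8 groups. The labels do not give the sort gates, which leaves DN unexplained. Nor do they say that the 3 libraries of a group are from different mice, and the p-values then reflect only library-to-library spread, which may be technical.

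A dividing cell passes from G1, when D-type cyclins with the kinases Cdk4 and Cdk6 release E2F transcription factors, into S phase, when the MCM helicase unwinds DNA at licensed origins, and on to mitosis, driven by Cdk1 with A- and B-type cyclins. E2F factors act on many replication genes, and the mitotic genes are transcribed later, through promoter elements called the CHR and the CCAAT box. Most ILCs of the adult intestine are long-lived tissue-resident cells that divide slowly, and transcripts of the mitotic genes are known to be abundant in the dividing fraction of a population.

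In units of 1e6 counts, library totals ran from 12.8 to 84.4, lowest in the ILC1 groups (12.8 to 56.3) and highest in WT CCR6 (51.6 to 84.4). One library stood apart, WT ILC1 library 2, with the lowest total and a protein-coding share of 84.06%, where the other 23 had 91.57% to 94.94%. The deleted genes did not fall in the gene-level counts: in CPM (counts per 1e6 counts), Nr1d1 was at 49.8 to 643 in WT libraries and 458 to 1770 in DKO libraries, and Nr1d2 at 13 to 67.1 and 36.1 to 149. Which exons the floxed alleles remove is not given in the sources used here, so these totals do not check the deletion and each direction below rests on the labels. Ncr1 and Ccr6 followed the population labels. Ncr1, which encodes NKp46, was at 397 to 2030 CPM in the NKp46 and ILC1 libraries. In CCR6 libraries it was at 2.55 to 12.1 CPM. Ccr6 was at 702 to 1480 CPM in CCR6 libraries and at most 41.8 CPM elsewhere. Both belong to a list of 8 genes that define ILC1 and ILC3. At an adjusted p under 0.05, edgeR put 2, 4, 6 and 5 of the 8 lower in DKO ILC1, NKp46, CCR6 and DN. It put 0 higher. WT sums over the 8 were 8230 to 9070 CPM in CCR6, 6610 to 7420 in NKp46 and 5440 to 6810 in DN. DKO sums were lower, at 4680 to 5050, 3330 to 3490 and 3460 to 3830 CPM. ILC1 sums overlapped. The part of this difference in the results below was not tested. The DN gate held T cell transcripts, with a sum over 10 T cell markers of 3010 to 3180 CPM in WT DN and 1350 to 1560 CPM in DKO DN against 703 to 1520 CPM elsewhere. Transcripts that mark ILC2, another class of ILC, were also highest in DN, with a sum over 8 markers of 1240 to 1820 CPM in WT DN and 658 to 986 CPM in DKO DN against 327 to 570 CPM elsewhere.

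Levels differed widely among the 38 genes. Per kilobase of exon, Ccnd2 had the highest mean level over the 24 libraries at 79.4 CPM per kb, followed by Hmgb2 at 62.1, Ccnd3 at 48.1, Pcna at 33.1 and Mcm6 at 30.7 CPM per kb. Ccnd2 and Ccnd3 encode D-type cyclins, Hmgb2 a chromatin protein of the high mobility group, Pcna the sliding clamp of the replication fork and Mcm6 a subunit of the MCM helicase. The mitotic genes were much lower per length: Top2a, the topoisomerase that untangles sister chromatids, averaged 2.92 CPM per kb, Mki67, which encodes the proliferation antigen Ki-67, 0.681 CPM per kb, and Cenpf, a kinetochore protein, 0.072 CPM per kb, the lowest of the 38. In several libraries the rarest transcripts (Ccne1, Ccna2, Ccnb1, Ccnb2, Aurkb, Plk1, Bub1 and Cenpf) had 0 counts, and their fold changes carry large errors.

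The order of the groups was similar for many of the genes. DKO NKp46 had the highest group mean for 21 genes and WT NKp46 for 7, and WT CCR6 had the lowest mean for 23, WT ILC1 for 8 and DKO CCR6 for 4. The 2 D cyclins summed to 310 to 376 CPM in WT CCR6, 797 to 830 CPM in DKO CCR6 and 969 to 1650 CPM in the other 6 groups, with no overlap between these ranges. The 10 genes of the replication fork and its origins summed to 434 to 459 CPM in WT CCR6 and to 578 to 998 CPM in WT NKp46. Every library of the other groups lay above WT CCR6, though WT ILC1 library 2 did so only narrowly, at 462 CPM. The lowest sums in WT DN and DKO CCR6 were 502 and 516 CPM. The 7 spindle, kinetochore and chromosome genes summed to 16.8 to 22 CPM in WT CCR6 and 46.3 to 104 CPM in WT NKp46. Single genes could depart from this order. Pcna varied little, from 61.2 to 109 CPM over all libraries, and was highest in WT ILC1 (108, 70.2 and 109 CPM). Hmgb2 was also highest in WT ILC1, at 389, 246 and 224 CPM.

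**Figure D1:**
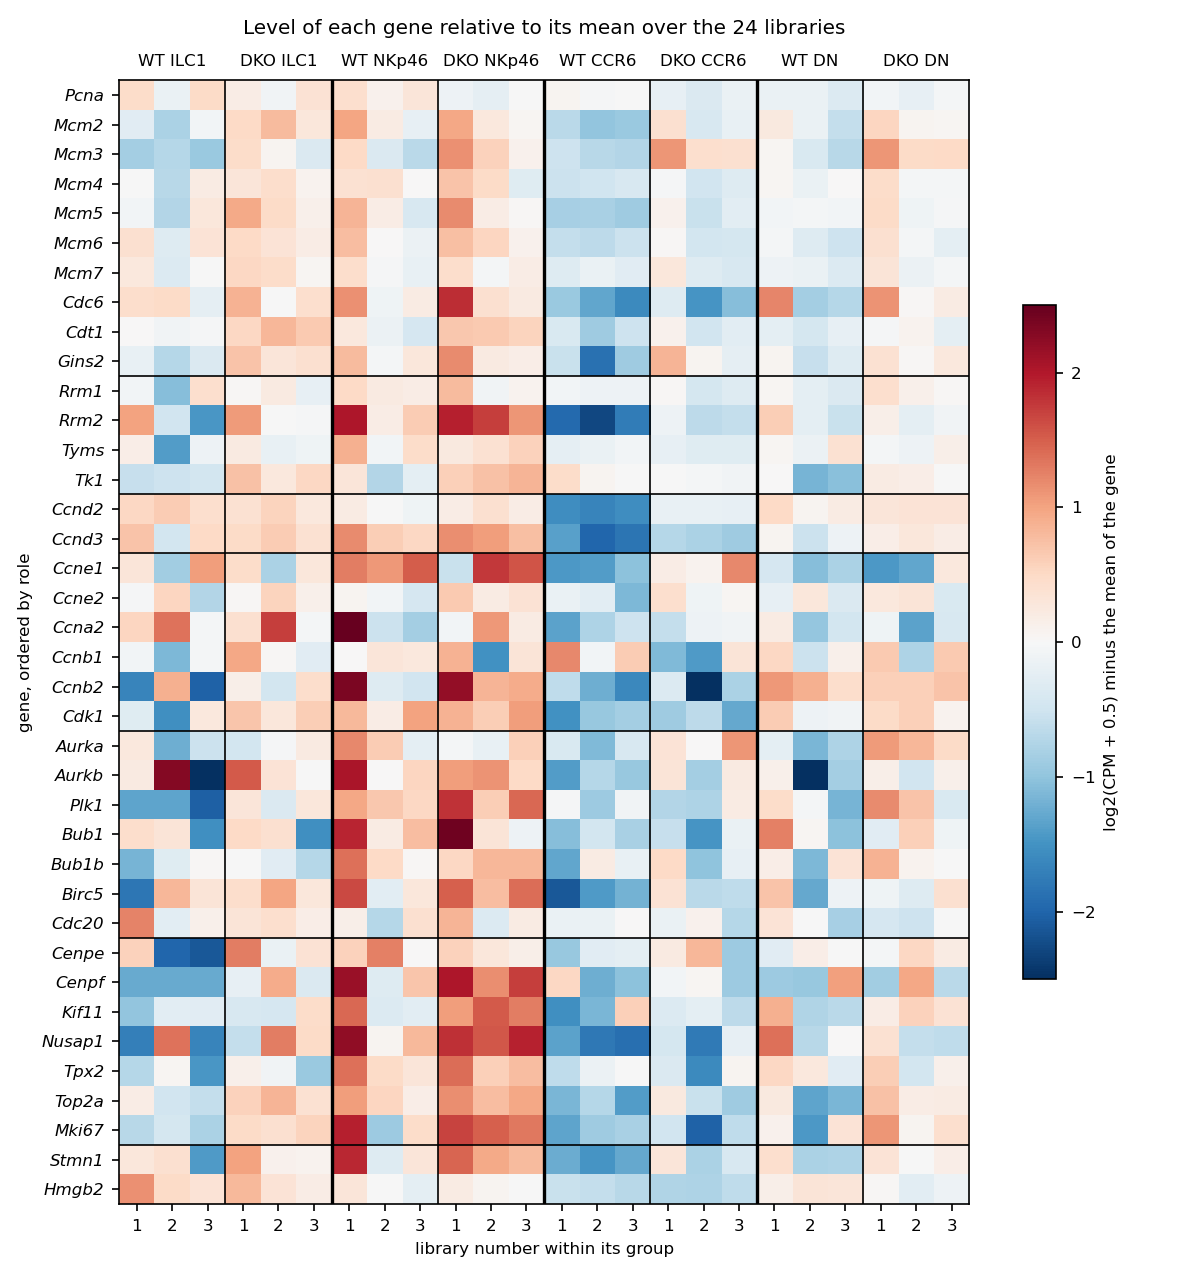
Level of each of the 38 genes (rows, ordered by role) in each of the 24 libraries (columns, grouped by population and genotype), as the log2 difference from the gene's mean over all libraries. WT CCR6 libraries hold the lowest group mean for 23 genes, and the 2 NKp46 groups hold the highest for 28 between them (21 in DKO and 7 in WT).

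Among WT populations the contrast with the most called genes of the set was NKp46 against CCR6. Of the 38 genes, 17 were higher in WT NKp46 and 0 lower by the quasi-likelihood test of edgeR with Benjamini-Hochberg adjusted p-values, a gene being called at an adjusted p under 0.05. Of all 21286 genes, 6.23% were called in this contrast and 3.41% were called higher in NKp46. The median log2 difference was 1.35 over the 38 genes and -0.00956 over all genes. In bulk libraries a smaller number of dividing cells and less transcript per dividing cell cannot be told apart. All 3 NKp46 libraries lay above all 3 CCR6 libraries for 26 of the 38 genes, whereas the libraries of these groups did not overlap, in either direction, for 28.2% of all genes.

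The D cyclins carried the smallest adjusted p-values. Ccnd3 was at 820, 552 and 519 CPM in WT NKp46 and at 141, 91.1 and 102 CPM in WT CCR6, a log2 difference of 2.50 ± 0.243 (SE, n = 3 libraries per group, edgeR adjusted p = 3e-07). Ccnd2 was at 795, 689 and 638 CPM in WT NKp46 and at 235, 219 and 234 CPM in WT CCR6, a difference of 1.63 ± 0.115 (edgeR adjusted p = 2.7e-09). Neither gene's NKp46 libraries came near those of CCR6. Ccnd2 spans chr6:127125162-127152193 and Ccnd3 chr17:47505051-47599691 (GRCm38).

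Rrm2, the small subunit of ribonucleotide reductase and the S phase-limited source of deoxynucleotides, showed the largest difference among the 6 genes with the smallest adjusted p. It was at 45.7, 12.6 and 17.3 CPM in WT NKp46 and at 2.49, 1.87 and 2.92 CPM in WT CCR6, a log2 difference of 3.38 ± 0.57 (edgeR adjusted p = 0.00039). Its partner Rrm1, the large subunit, was at 115, 94.8 and 92.5 CPM against 77.6, 73.7 and 74.5 CPM and did not pass (0.42 ± 0.263, edgeR adjusted p = 0.48). The other enzymes of deoxynucleotide supply, thymidylate synthase (Tyms) and thymidine kinase (Tk1), did not pass either.

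Cdk1, the kinase that drives entry into mitosis, was at 6.16, 3.82 and 7.12 CPM in WT NKp46 and 0.817, 1.45 and 1.6 CPM in WT CCR6 (log2 difference 2.14 ± 0.468, edgeR adjusted p = 0.0051). Top2a was at 47.8, 33.4 and 25.7 CPM against 10.1, 13.9 and 8.39 CPM (1.72 ± 0.378, edgeR adjusted p = 0.0053). Stmn1, which encodes the microtubule-destabilising protein stathmin, was at 72.7, 15.2 and 23.9 CPM against 7.83, 6.64 and 7.64 CPM (2.34 ± 0.521, edgeR adjusted p = 0.006). In these 3 genes too every NKp46 library lay above every CCR6 library, and for Stmn1 the first NKp46 library was far above the other 2.

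The 11 further genes that passed covered most roles. They were the helicase subunits Mcm2, Mcm4, Mcm5 and Mcm6, the licensing factor Cdc6, the replisome assembly factor Gins2, cyclin E1 (Ccne1), survivin (Birc5, of the chromosomal passenger complex), the spindle protein Nusap1, Mki67 and Hmgb2. Ccne1 had 14 counts in all in WT CCR6 and 307 in WT NKp46, a ratio of 42.3 with a 95% counting interval of 24.8 to 78.2, and of 377 (67.2 to 14900) without WT CCR6 library 3. Mki67, singled out after its values were seen, passed (2.14 ± 0.602, edgeR adjusted p = 0.033) although its libraries overlapped: 21.6, 2.55 and 7.41 CPM in WT NKp46 and 1.79, 2.59 and 2.76 CPM in WT CCR6. By role, 6 of 10 replication fork and origin genes, 1 of 4 deoxynucleotide enzymes, 2 of 2 D cyclins, 2 of 6 other cyclins and Cdk1, 1 of 7 mitotic kinase and checkpoint genes, 3 of 7 spindle genes and both Stmn1 and Hmgb2 were called. Genes that did not pass included Pcna, Mcm7, cyclin B1 (Ccnb1) and the anaphase activator Cdc20, the last at 6.59, 3.41 and 7.93 CPM against 5.19, 5.22 and 5.92 CPM.

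The count of 17 fell when some single libraries were left out. A fit with fewer libraries is also a weaker test, and the 2 were not told apart. Counts over all genes in these fits are not given here. It was 5 without WT NKp46 library 1, which held the highest value of its group for 30 of the 36 genes other than D cyclins, and 9, 6 and 9 without WT CCR6 libraries 1, 2 and 3. Markers of other cells also differed between these groups. Of the 10 T cell markers 1 was called higher in WT NKp46 and 4 lower, with a median log2 difference of -1.23. Cd3e, for example, was at 10.2, 13.3 and 15.1 CPM in WT NKp46 and 97.1, 72.2 and 79.4 CPM in WT CCR6, while the sums over the 10 (716 to 815 and 755 to 904 CPM), in which Trbc1 and Trbc2 are the largest terms, overlapped. The sum over 7 B and plasma cell markers was 190 to 275 CPM in NKp46 and 144 to 722 CPM in CCR6, with 1 of the 6 tested called higher in NKp46. Of 9 epithelial and 8 ILC2 markers 1 each was called higher in NKp46. The part of these cells in the result was not tested.

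Genes of replication and of mitosis were both among those called in this contrast, and promoters are shown for 4 of them, 200 bases before the RefSeq transcription start on GRCm38.p6, 5′ to 3′ on the strand of the gene. Mcm5 and Mcm6 stand for the replication genes and Cdk1 and Top2a for the mitotic ones. Capitals mark 3 motifs searched on both strands: the E2F motif (TTTCCCGC, TTTCGCGC, TTTGCCGC or TTTGGCGC), the CCAAT box (CCAAT) and the CHR (TTTGAA or TTTAAA).
Mcm5 (chr8:75109309-75109508, plus strand): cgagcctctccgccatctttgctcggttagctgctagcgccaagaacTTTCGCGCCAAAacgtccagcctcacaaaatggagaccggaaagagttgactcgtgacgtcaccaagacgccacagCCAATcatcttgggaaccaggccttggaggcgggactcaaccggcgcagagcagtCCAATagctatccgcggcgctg
Mcm6 (chr1:128359706-128359905, minus strand): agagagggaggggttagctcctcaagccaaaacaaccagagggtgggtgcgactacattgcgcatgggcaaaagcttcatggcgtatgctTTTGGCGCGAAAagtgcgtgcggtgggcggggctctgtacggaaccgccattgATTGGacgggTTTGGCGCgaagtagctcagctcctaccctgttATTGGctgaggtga
Cdk1 (chr10:69352913-69353112, minus strand): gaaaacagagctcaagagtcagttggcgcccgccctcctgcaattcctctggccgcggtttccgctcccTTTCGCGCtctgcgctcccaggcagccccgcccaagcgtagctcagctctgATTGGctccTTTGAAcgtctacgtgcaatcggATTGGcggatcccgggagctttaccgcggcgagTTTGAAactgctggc
Top2a (chr11:99024190-99024389, minus strand): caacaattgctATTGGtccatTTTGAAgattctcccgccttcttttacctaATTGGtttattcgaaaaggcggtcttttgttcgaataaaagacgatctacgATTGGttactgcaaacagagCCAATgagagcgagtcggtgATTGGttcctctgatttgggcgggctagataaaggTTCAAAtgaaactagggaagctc
In Mcm5 and Mcm6 the capitals of one run are 2 E2F matches that overlap on opposite strands.

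RefSeq promoters were found for 30 of the 38 genes, 32 promoters in all, in a table of 32851 promoters of 300 bases (250 before and 50 after the start). Mcm4, Gins2, Ccnd2, Ccne2, Ccna2, Aurkb, Tpx2 and Stmn1 had none there. The E2F motif was in 6 of 13 promoters of replication and deoxynucleotide genes (46.2%), in 1 of 16 promoters of the E, A and B cyclin, Cdk1, mitotic kinase and spindle genes (6.25%, Cdk1) and in 2.26% of all promoters. The 7 genes with it were Mcm3, Mcm5, Mcm6, Mcm7, Cdc6, Cdt1 and Cdk1. The D cyclins are counted in neither the 13 nor the 16 promoters. No promoter of Ccnd3 held the E2F motif, and Ccnd2 could not be searched. The CHR letters lay the other way, in 14 of the same 16 promoters (87.5%), 4 of the 13 of replication and deoxynucleotide genes (30.8%) and 27.6% of all promoters. The CCAAT box was in 24 of the 32 promoters (75.0%) and in 37.4% of all. AGGTCA, a hexamer that REV-ERB proteins and other nuclear receptors recognise, was in 4 of the 32 (12.5%; Ccnb1, Ccnd3, Mcm2 and Pcna) and in 16.3% of all promoters. A match describes the letters of these windows and not binding.

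In DKO mice the NKp46 and CCR6 libraries differed in the same direction as in WT for 34 of the 38 genes. The group means of the 2 contrasts share no library. Their tests come from 1 fit with a shared estimate of spread, so the calls are not independent. Of the 38, 9 were called higher in DKO NKp46 and 0 lower, beside 4.80% of all genes called and 2.33% called higher, and 24 genes had every NKp46 library above every CCR6 library, beside 23.0% of all genes whose libraries did not overlap in either direction. The median log2 difference was 0.883 over the 38 genes and 0 over all genes. Called in both genotypes were 8 genes: Cdc6, Rrm2, Ccnd2, Ccnd3, Cdk1, Top2a, Mki67 and Hmgb2. The ninth in DKO was Cdt1, which loads the MCM helicase with Cdc6.

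Ccnd3 was at 813, 742 and 607 CPM in DKO NKp46 and 219, 208 and 196 CPM in DKO CCR6 (log2 difference 1.79 ± 0.237, edgeR adjusted p = 2.8e-05). Mki67 was at 18, 15.7 and 13.7 CPM against 3.62, 0.918 and 3.18 CPM (2.62 ± 0.614, edgeR adjusted p = 0.012). Cdk1 was at 6.45, 5.3 and 7.32 CPM against 1.53, 1.89 and 1.05 CPM (2.09 ± 0.468, edgeR adjusted p = 0.0084), close to its WT difference of 2.14. These 3 genes did not overlap between the populations. The median log2 difference in DKO was 0.57 over the 10 replication fork and origin genes and 2.03 over the 7 spindle genes. Mcm3 was at 170, 114 and 82.3 CPM in NKp46 and 165, 102 and 101 CPM in CCR6. Hmgb2 (204, 185 and 175 CPM against 105, 103 and 113 CPM) and Cdt1 (41.3, 40.6 and 37.6 CPM against 27.7, 18.1 and 21.2 CPM) passed with log2 differences of 0.81 ± 0.181 (edgeR adjusted p = 0.0079) and 0.835 ± 0.194 (edgeR adjusted p = 0.011). In both genes the 2 sets of libraries did not overlap.

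Of the 38 genes, 17 had every NKp46 library above every CCR6 library in both genotypes, beside 4.74% of all genes. Among them were 5 that were called in neither genotype or any other contrast: Tyms, cyclin B2 (Ccnb2), Aurora kinase B (Aurkb), the checkpoint kinase Bub1 and the spindle assembly factor Tpx2. Tpx2 was at 9.86, 5.07 and 4.47 CPM in WT NKp46 and 2.07, 3.11 and 3.48 CPM in WT CCR6 (1.16 ± 0.544, edgeR adjusted p = 0.28), and at 10.1, 5.55 and 6.3 CPM against 2.63, 0.828 and 3.71 CPM in DKO (1.61 ± 0.552, edgeR adjusted p = 0.11). In all, 16 of the 38 genes were called in none of the 16 pairwise contrasts. Beside those 5 they were Mcm7, Rrm1, Tk1, cyclins A2, B1 and E2 (Ccna2, Ccnb1, Ccne2), Aurka, Cdc20, the checkpoint kinase Bub1b and the spindle motors Cenpe and Kif11. Mcm7 (49.4 to 93.9 CPM over all libraries), Rrm1 (38.3 to 140 CPM) and Tyms (8.44 to 43.2 CPM) were the most abundant of them, and the others stayed below 16 CPM in every library.

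Ccnd2 was less apart in DKO. Its log2 difference between NKp46 and CCR6 was 0.45 ± 0.112 in DKO (784, 909 and 789 CPM against 611, 606 and 601 CPM, edgeR adjusted p = 0.019), beside 1.63 ± 0.115 in WT, and the test of that change is given with the genotype effects. The count of 9 was 4 without DKO NKp46 library 1 or 2 and 5, 2 and 3 without DKO CCR6 libraries 1, 2 and 3. DESeq2 called 14. Of the 10 T cell markers 3 were called higher in DKO NKp46 and 4 lower, with sums of 712 to 805 CPM in NKp46 and 703 to 776 CPM in CCR6. The 7 B and plasma cell markers summed to 326 to 790 CPM in DKO NKp46 and 76.6 to 140 CPM in DKO CCR6, with 1 of the 6 tested called higher, and the part of these cells was not tested.

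**Figure D2:**
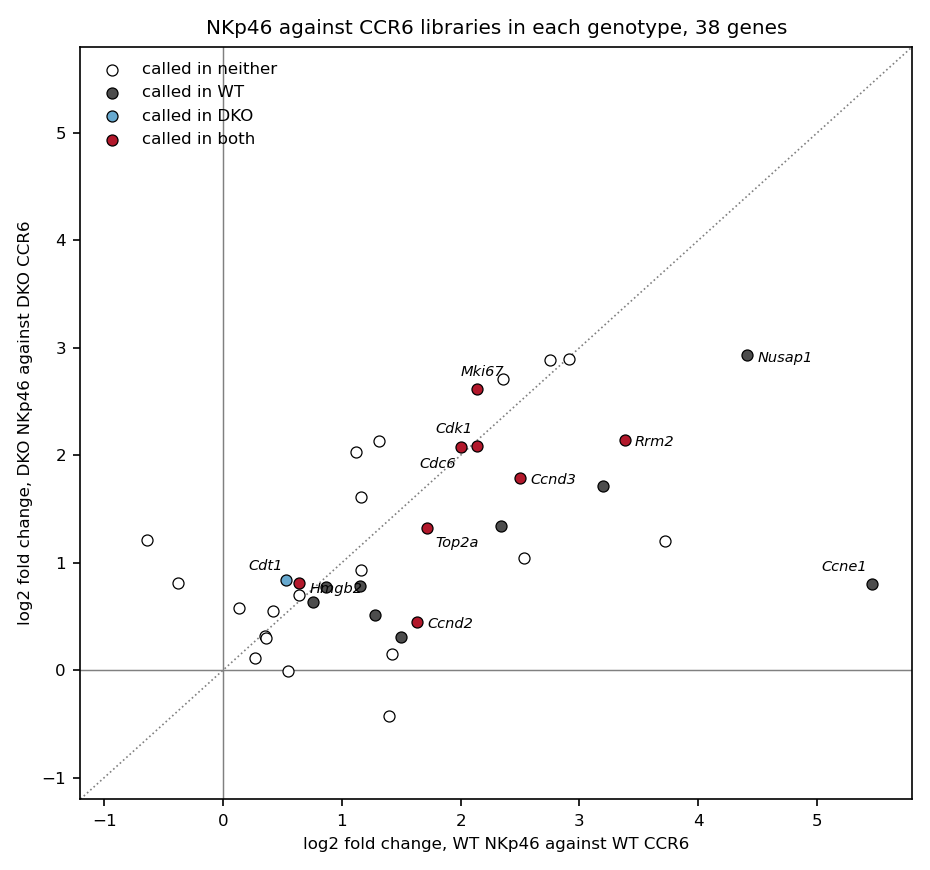
Log2 fold change of each of the 38 genes between NKp46 and CCR6 libraries in WT (horizontal axis) and in DKO (vertical axis), n = 3 libraries per group; fill marks in which genotype a gene was called and the dotted line marks equal values. Of the 38 points 36 lie to the right of 0 and 36 above it, and Ccnd2 lies at 1.63 in WT and 0.45 in DKO.

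ILC1 and DN were also compared with CCR6 in WT. Against WT CCR6, WT ILC1 had 9 genes higher and 2 lower, beside 19.3% of all genes called, and WT DN had 5 higher and 0 lower, beside 5.84% called and 3.89% called higher. Both showed the D cyclins first. Ccnd2 was at 993, 1070 and 922 CPM in WT ILC1, 2.12 ± 0.117 above WT CCR6 on the log2 scale (edgeR adjusted p = 1.1e-11), and at 977, 722 and 795 CPM in WT DN (1.86 ± 0.116, edgeR adjusted p = 7.5e-10). Ccnd3 was 2.03 ± 0.239 above in WT ILC1 (edgeR adjusted p = 1.5e-06) and 1.51 ± 0.235 above in WT DN (edgeR adjusted p = 0.00019). Hmgb2 and Rrm2 were called higher in both as well, Hmgb2 by 1.31 ± 0.183 in ILC1 (edgeR adjusted p = 1.5e-05) and 0.86 ± 0.181 in DN (edgeR adjusted p = 0.0041), and Rrm2 by 2.22 ± 0.547 (edgeR adjusted p = 0.0057) and 2.21 ± 0.545 (edgeR adjusted p = 0.015). WT ILC1 further exceeded WT CCR6 in Mcm6 (0.77 ± 0.236, edgeR adjusted p = 0.024), Cdt1, Cdc6, Ccne1 and Birc5, and WT DN in Cdk1 (1.55 ± 0.46, edgeR adjusted p = 0.049), a call lost in 11 of 14 alternatives (adjusted p from 0.0043 to 0.58). The count for ILC1 was 5, 6 and 6 without WT CCR6 libraries 1, 2 and 3, and that for DN was 3 without WT CCR6 library 1 or 2. Beside these differences, 9 of 10 T cell markers and 8 of 8 ILC2 markers were called higher in WT DN than in WT CCR6, where the ILC2 markers summed to 464 to 523 CPM, and the part of such cells in the DN values was not tested.

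The 2 genes lower in WT ILC1 than in WT CCR6 are mitotic. Plk1, the polo-like kinase of spindle assembly, was at 0.322, 0.321 and 0 CPM in WT ILC1 and 1.5, 0.589 and 1.42 CPM in WT CCR6. Cenpf had 0 counts in all 3 WT ILC1 libraries and was at 1.22, 0.0118 and 0.0895 CPM in WT CCR6, at least 9.21-fold higher when a floor of 3 counts is taken over the group. Without WT CCR6 library 1, which held most of its counts, it was at least 1.35-fold higher and was not called (edgeR adjusted p = 0.26). Plk1 lost its call in 6 of 13 alternatives and Cenpf in 6 of 12. Between WT NKp46 and WT ILC1 4 of the 38 genes were called, 10.5% of the set, near the 10.7% of all genes called. Plk1 was 3.85 ± 0.913 higher in NKp46 (edgeR adjusted p = 0.0075). Cenpf (4.81, 0.452 and 1.44 CPM) was at least 55-fold higher (edgeR adjusted p = 0.011), and at least 23-fold without WT NKp46 library 1. Ccnd2 and Hmgb2 were lower in NKp46 than in ILC1, by log2 differences of -0.49 ± 0.112 (edgeR adjusted p = 0.0057) and -0.67 ± 0.18 (edgeR adjusted p = 0.018). WT ILC1 had the higher Ccnd2 and Hmgb2 and the lower Plk1 and Cenpf of this pair. The WT ILC1 libraries also had the highest sums over 8 myeloid markers, 192 to 644 CPM against at most 93.8 CPM elsewhere. Itgax, Lyz2, S100a8 and S100a9 made up most of the WT ILC1 sums. Itgax was at 62.5, 69.5 and 118 CPM in WT ILC1 and 27.7, 45.2 and 41.4 CPM in DKO ILC1. In WT ILC1 library 2 S100a8 was at 260 CPM and S100a9 at 168 CPM. Csf1r, Cd68, Adgre1 and Cd14 were at most 10.8 CPM in WT ILC1. Whether other cells had a part in the differences was not tested. Without WT ILC1 library 2 the genes called were 9 between WT ILC1 and WT CCR6, 7 between WT NKp46 and WT ILC1 and 3 between WT ILC1 and WT DN.

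WT NKp46 and WT DN differed in Ccnd3 alone (0.99 ± 0.232, edgeR adjusted p = 0.018), beside 2.97% of all genes, and in no gene of the set without WT NKp46 library 1 or WT DN library 2 or 3. WT ILC1 and WT DN differed in Pcna (0.51 ± 0.151 higher in ILC1, edgeR adjusted p = 0.04) and in Cenpf (at least 19.1-fold higher in DN, edgeR adjusted p = 0.046), beside 7.61% of all genes, and neither was called without WT ILC1 library 3. Cenpf was at 0.133, 0.123 and 1.94 CPM in WT DN, and without DN library 3 it was at least 3.54-fold higher and was not called (edgeR adjusted p = 0.24). In DKO, ILC1 had 5 genes higher than CCR6 and 0 lower, beside 11.9% of all genes called and 5.99% called higher. They were Hmgb2 (1.19), Ccnd3 (1.30), Ccnd2 (0.59), Cdt1 (0.88) and Cdk1 (1.74), with edgeR adjusted p from 5.9e-05 to 0.014. DKO DN exceeded DKO CCR6 in Ccnd2 (0.52 ± 0.112, edgeR adjusted p = 0.012) and Ccnd3 (1.01 ± 0.232, edgeR adjusted p = 0.022), beside 1.79% of all genes called and 1.35% called higher, and neither passed without DKO CCR6 library 1 or 2 or DKO DN library 3. D cyclins were therefore called higher than in CCR6 in each of the other populations in both genotypes, in contrasts that share the CCR6 libraries of a genotype. DKO ILC1 and DKO DN differed in Cdt1 (0.74, edgeR adjusted p = 0.018) and Hmgb2, both higher in ILC1, beside 7.24% of all genes, and in neither without DKO ILC1 library 2 or DKO DN library 1 or 3. No gene of the 38 was called between DKO NKp46 and DKO DN, beside 0.723% of all genes (edgeR, 5 at an unadjusted p under 0.05, and 3 by DESeq2), or between DKO NKp46 and DKO ILC1, beside 4.77% (edgeR, 5 at an unadjusted p under 0.05, and 0 by DESeq2).

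Between the genotypes, 4 of the 38 genes were higher in DKO CCR6 and 0 lower (Ccnd2, Mcm3, Ccnd3 and Gins2), beside 3.97% of all genes called and 1.93% called higher. A further 7 had an unadjusted p under 0.05. For 15 genes the DKO and WT libraries did not overlap, 39.5% of the set beside 24.8% of all genes, and the median log2 difference was 0.362 over the 38 genes and -0.0214 over all.

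Ccnd2 was at 611, 606 and 601 CPM in DKO CCR6 and 235, 219 and 234 CPM in WT CCR6. The libraries of each group were close together and the groups far apart, a log2 difference of 1.40 ± 0.114 (n = 3 per group, edgeR adjusted p = 3.9e-08). The effect differed among the populations (edgeR adjusted p = 2.2e-05 for any difference, beside 1.37% of all genes called by that test), and Ccnd2 was the only one of the 38 genes for which it did, with 5 at an unadjusted p under 0.05. In CCR6 the effect exceeded that in ILC1 by 1.52 ± 0.159 (edgeR adjusted p = 7.6e-06, beside 1.17% of all genes called), that in NKp46 by 1.18 ± 0.159 (edgeR adjusted p = 0.00065, beside 0.423%) and that in DN by 1.34 ± 0.159 (edgeR adjusted p = 0.00022, beside 0.127%). In the other 3 populations Ccnd2 differed by -0.12 ± 0.112 (ILC1, edgeR adjusted p = 0.69), 0.225 ± 0.112 (NKp46, edgeR adjusted p = 0.33) and 0.06 ± 0.112 (DN, edgeR adjusted p = 0.93). Even so, the DKO CCR6 libraries stayed below every library of the other populations, of which the lowest was WT NKp46 library 3 at 638 CPM. Exons of Ccnd2 share 740 bases with those of Gm43126 and 9330179D12Rik, and the strand setting of the counting is not given in the sources used here.

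Ccnd3 was at 219, 208 and 196 CPM in DKO CCR6 and 141, 91.1 and 102 CPM in WT CCR6 (log2 difference 0.90 ± 0.232, edgeR adjusted p = 0.027). The libraries did not overlap. The difference in CCR6 less that in ILC1, NKp46 and DN was 0.73, 0.706 and 0.504, each ± 0.326, and none of these passed (edgeR adjusted p = 0.39, 0.62 and 0.92). The higher Ccnd3 in CCR6 was not shown to differ from the values in the other populations, which were 0.17 ± 0.23 in ILC1, 0.19 ± 0.23 in NKp46 and 0.395 ± 0.23 in DN (edgeR adjusted p = 0.80, 0.77 and 0.55).

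Mcm3, a subunit of the MCM helicase, was at 165, 102 and 101 CPM in DKO CCR6 and 53.4, 46.9 and 46 CPM in WT CCR6 (1.33 ± 0.301, edgeR adjusted p = 0.0095). DKO values lay above WT values in this gene also in ILC1 (105, 80.6 and 59.8 CPM against 42, 46.5 and 40 CPM; 0.93 ± 0.301, edgeR adjusted p = 0.17) and in DN (164, 107 and 108 CPM against 79.6, 58.6 and 47.1 CPM; 1.03 ± 0.30, edgeR adjusted p = 0.072), where it did not pass. In NKp46 it was at 170, 114 and 82.3 CPM against 108, 59.2 and 47.5 CPM, which overlap (0.77 ± 0.298, edgeR adjusted p = 0.18). Mcm3 lies at chr1:20802968-20820312 (GRCm38). Its partners in the helicase ring did not pass in CCR6: Mcm2 was at 96.5, 55.1 and 64.1 CPM against 45.8, 36.8 and 38.1 CPM (0.84 ± 0.297, edgeR adjusted p = 0.16) and Mcm5 at 78.3, 49.5 and 60.4 CPM against 40.9, 41.6 and 39.3 CPM (0.63 ± 0.315, edgeR adjusted p = 0.42).

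Gins2, part of the GINS complex that joins the helicase to the polymerases, was at 15.5, 8.75 and 7.08 CPM in DKO CCR6 and 5.53, 1.93 and 4.28 CPM in WT CCR6 (1.42 ± 0.384, edgeR adjusted p = 0.037). Of its 4097 exon bases, 2758 are shared with exons of Gse1, so reads of the 2 genes may not be told apart. The libraries of Gins2 did not overlap, and DKO library 1 was the highest.

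The genes that mark S phase and mitosis most closely did not pass in CCR6. Rrm2 was at 10, 6.77 and 7.03 CPM in DKO CCR6 and 2.49, 1.87 and 2.92 CPM in WT CCR6 (1.71 ± 0.538, edgeR adjusted p = 0.089). Mki67 was at 3.62, 0.918 and 3.18 CPM against 1.79, 2.59 and 2.76 CPM (0.11 ± 0.583, edgeR adjusted p = 0.99). Top2a was at 27.2, 15.4 and 12.1 CPM against 10.1, 13.9 and 8.39 CPM (0.75 ± 0.371, edgeR adjusted p = 0.40). Rrm2 libraries did not overlap between the genotypes, whereas those of Mki67 and Top2a did. Ccnb1, cyclin B1, was at 0.165, 0.036 and 1.28 CPM against 2.77, 0.871 and 1.73 CPM (-1.86 ± 1.15, edgeR adjusted p = 0.58). Ccne1 had 229 counts in DKO CCR6 and 14 in WT CCR6, a ratio of 22.1 with a 95% counting interval of 12.9 to 41 (14.4 without WT CCR6 library 2 and 197 without library 3), and did not pass the test over libraries (edgeR adjusted p = 0.083).

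The number of genes called in CCR6 was 1 without WT CCR6 library 2 or without DKO CCR6 library 1, 2 without WT CCR6 library 3 or DKO CCR6 library 2, and Ccnd2 was called in each of these fits. The summed level of 9 epithelial markers was 18.3 to 37.2 CPM in DKO CCR6 (up to 4 of them at 0). In WT CCR6 it was 5.32 to 9.94 CPM (2 to 4 at 0), and 1 of the 9 was called higher in DKO. Krt8 and Krt18 made up most of these sums. Krt18 was at 12.4, 23.9 and 13.1 CPM in DKO CCR6 and 2.47, 2.48 and 4.77 CPM in WT CCR6. Of the 9 markers 5 had higher values in DKO and 4 lower, with a median log2 difference of 0.113. The sum of 10 T cell markers was 703 to 776 CPM in DKO CCR6 and 755 to 904 CPM in WT CCR6, with 2 called lower, and the part of other cells in the result was not tested.

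**Figure D3:**
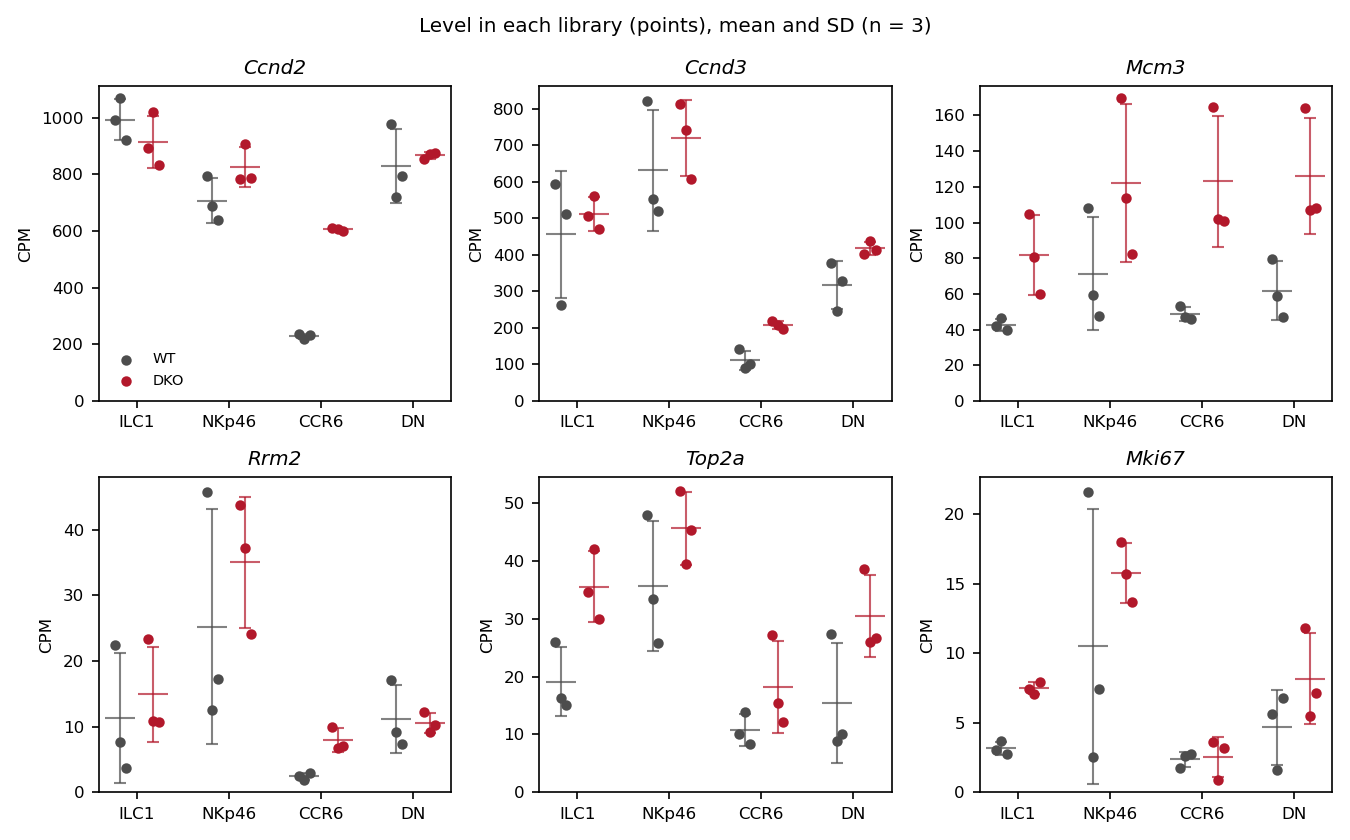
Level in CPM of Ccnd2, Ccnd3, Mcm3, Rrm2, Top2a and Mki67 in each library (points) with the mean and SD (n = 3 libraries) for WT and DKO in the 4 populations. For Ccnd2 the 3 DKO CCR6 libraries (601 to 611 CPM) stand well above the 3 WT CCR6 libraries (219 to 235 CPM), whereas in the other populations the 2 genotypes lie close together.

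In NKp46 cells 1 of the 38 genes was called, Cdt1, beside 4.16% of all genes called and 1.99% called higher. Cdt1, the licensing factor, was at 41.3, 40.6 and 37.6 CPM in DKO NKp46 and 30.7, 23.1 and 19.1 CPM in WT NKp46 (0.715 ± 0.194, edgeR adjusted p = 0.037). Every DKO library lay above every WT library, and the call was lost without WT NKp46 library 2 or 3 or any 1 of the DKO libraries. The same order held in ILC1, at 37, 45.7 and 40.4 CPM against 25.9, 23.9 and 24.9 CPM, with a like difference that did not pass (0.72 ± 0.194, edgeR adjusted p = 0.087). Libraries did not overlap for 4 of the 38 genes in NKp46, beside 21.5% of all genes, and 1 of the 4 was Pcna, which lay lower in DKO (71.3, 67 and 77.3 CPM against 105, 83.9 and 96.1 CPM, -0.40 ± 0.15, edgeR adjusted p = 0.16). The median log2 difference in NKp46 was 0.223, beside -0.0155 over all genes. Of 10 T cell markers 1 was called higher in DKO NKp46 and 0 lower. Of 6 B and plasma cell markers tested 1 was called higher and 1 lower. The 7 on that list summed to 190 to 275 CPM in WT NKp46 and 326 to 790 CPM in DKO NKp46. Of 8 ILC2 markers 1 was called lower and 0 higher, and of 8 myeloid and 9 epithelial markers 0 were called. The part of these cells in the NKp46 values was not tested.

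The markers of dividing cells did not pass between the genotypes in NKp46, and their errors were wide. Mki67 differed by 0.59 ± 0.579 (18, 15.7 and 13.7 CPM against 21.6, 2.55 and 7.41 CPM, edgeR adjusted p = 0.70) and Top2a by 0.36 ± 0.368 (edgeR adjusted p = 0.72). Rrm2 differed by 0.48 ± 0.518 (edgeR adjusted p = 0.73) and Mcm5 by 0.265 ± 0.314 (edgeR adjusted p = 0.76). Ccnb1 differed by -0.00726 ± 1.12 (edgeR adjusted p = 1). With errors of this size, differences in either direction remain possible. In Mki67, Top2a and Rrm2 the WT NKp46 libraries spread more widely than the DKO ones, with WT library 1 the highest of its group.

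In ILC1 no gene of the 38 was called by edgeR's quasi-likelihood test, beside 1.06% of all genes, while 11 had an unadjusted p under 0.05 and DESeq2 called 4. The values leaned one way: 32 of the 38 differences were above 0, with a median of 0.422 beside 0 over all genes, and libraries did not overlap for 10 of the 38, beside 10.8% of all genes. Tk1, thymidine kinase, was at 13.5, 9.69 and 11.6 CPM in DKO ILC1 and 5.22, 5.46 and 5.64 CPM in WT ILC1 (1.09 ± 0.318, edgeR adjusted p = 0.12). Mki67 was at 7.45, 7.08 and 7.94 CPM against 3.06, 3.7 and 2.79 CPM (1.24 ± 0.595, edgeR adjusted p = 0.37). Top2a was at 34.5, 42 and 30 CPM against 26, 16.3 and 15.1 CPM (0.89 ± 0.372, edgeR adjusted p = 0.31). In each of these 3 every DKO library lay above every WT library, yet none passed over all genes tested. Cenpf, with 0 counts in the WT ILC1 libraries, was at 0.538, 1.76 and 0.434 CPM in DKO ILC1, at least 23.9-fold higher against the floor of 3 counts (edgeR adjusted p = 0.12; at least 12.8-fold without DKO ILC1 library 2).

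Other genes of S phase and mitosis did not pass in ILC1 either. Rrm2 differed by 0.40 ± 0.523 (edgeR adjusted p = 0.79), Mcm5 by 0.67 ± 0.316 (edgeR adjusted p = 0.36) and Ccnb1 by 0.98 ± 1.14 (edgeR adjusted p = 0.76). WT ILC1 library 2, the library that stood apart, is 1 of the 3 WT values in each of these comparisons. The myeloid marker sum was 192 to 644 CPM in WT ILC1 and 61.1 to 93.8 CPM in DKO ILC1. In DKO 8 of the 8 markers had lower values, with 0 called. The 644 CPM was WT ILC1 library 2, where S100a8 was at 260 CPM and S100a9 at 168 CPM. The B and plasma cell sum was 422 to 682 CPM in WT ILC1 and 715 to 1130 CPM in DKO ILC1, with 0 of 6 called and a median log2 difference of 1.81. Of 9 epithelial markers 9 had higher values in DKO (sums of 9.06 to 14 and 11.4 to 55.3 CPM, 0 called, 4 at an unadjusted p under 0.05). Of 10 T cell markers 9 had lower values (1190 to 1520 and 1010 to 1190 CPM), with 1 called. The part of these cells in the ILC1 values was not tested.

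In DN cells too no gene of the 38 was called by edgeR, beside 2.83% of all genes, with 4 at an unadjusted p under 0.05 and 2 called by DESeq2. With edgeR, 3 were called when the replicate number was a block, 2 with only the compared groups in the fit, 2 without WT DN library 1 and 1 without WT ILC1 library 2. The median difference was 0.289, beside -0.0443 over all genes. Aurka, the Aurora kinase of the spindle poles, was at 9.45, 7.97 and 6.14 CPM in DKO DN and 3.49, 1.64 and 2.27 CPM in WT DN (1.67 ± 0.483, edgeR adjusted p = 0.072). Top2a was at 38.6, 26 and 26.7 CPM against 27.3, 8.88 and 10.1 CPM (0.98 ± 0.372, edgeR adjusted p = 0.23). Aurka libraries did not overlap and those of Top2a did. Mki67 (0.805 ± 0.582), Rrm2 (-0.09 ± 0.519), Mcm5 (0.21 ± 0.314) and Ccnb1 (0.31 ± 1.11) had edgeR adjusted p from 0.69 to 0.99. The T cell marker sum was 3010 to 3180 CPM in WT DN and 1350 to 1560 CPM in DKO DN, and 7 of the 10 T cell markers were called lower in DKO. The ILC2 markers had lower values in DKO DN for 8 of 8, with 1 called and 3 at an unadjusted p under 0.05. The part of these cells in the DN values was not tested.

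**Figure D4:**
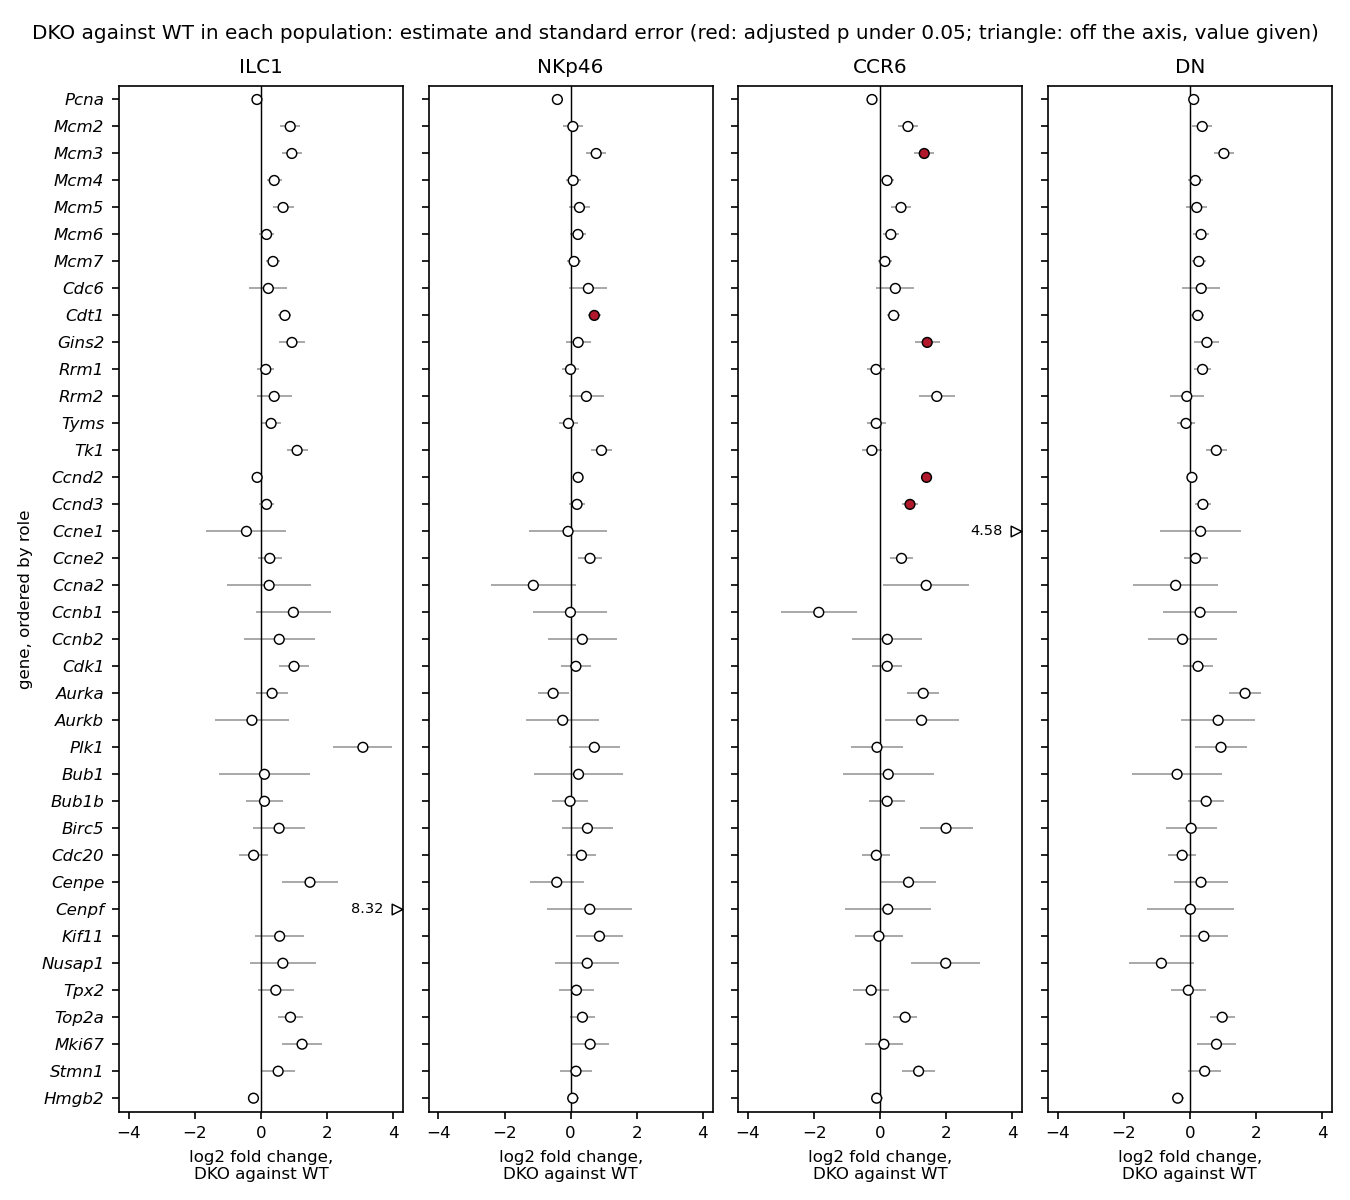
Log2 fold change of DKO against WT (points) with its standard error (bars) for each of the 38 genes in the 4 populations, n = 3 libraries per group, with genes past an adjusted p of 0.05 in red and off-axis values as triangles. Red points are Cdt1 in NKp46 and Ccnd2, Ccnd3, Mcm3 and Gins2 in CCR6, and most points of each panel lie to the right of 0 (32, 28, 28 and 29 of 38 in ILC1, NKp46, CCR6 and DN).

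Other genes of the same pathways were counted from 4 lists. Of 36 other DNA replication genes, 0 were called between the genotypes in any population by edgeR, with 2, 2, 5 and 1 at an unadjusted p under 0.05 in ILC1, NKp46, CCR6 and DN. Of 42 other mitosis genes 1 was called higher in each population, and that gene was Anln throughout. Anln encodes anillin, a scaffold of the cleavage furrow and of the cell cortex. It was at 0.437, 0.965 and 1.85 CPM in WT CCR6 and 24.7, 39.3 and 38.4 CPM in DKO CCR6 (log2 difference 4.96 ± 0.809, edgeR adjusted p = 0.00042), and differed by 6.10 ± 0.886 in NKp46 (edgeR adjusted p = 0.00014), 4.75 ± 0.809 in DN (edgeR adjusted p = 0.00092) and 3.93 ± 0.895 in ILC1 (edgeR adjusted p = 0.03). In no population did WT and DKO libraries overlap for it. Nek2, a centrosome kinase, was the 1 mitosis gene called lower, in CCR6, with 164 counts in WT and 1 in DKO (ratio 122, 95% counting interval 21.5 to 4830, edgeR adjusted p = 0.03). The ratio was 70.6 (12.3 to 2830) without WT CCR6 library 1.

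Of 18 cell cycle transcription factors and G1 kinases, 0, 1, 2 and 1 were called higher in ILC1, NKp46, CCR6 and DN and 0 lower. Cdk6, the kinase partner of the D cyclins, was the gene in each. It was at 47.6, 47.4 and 49.9 CPM in WT CCR6 and 127, 124 and 113 CPM in DKO CCR6 (1.33 ± 0.22, edgeR adjusted p = 0.00048). In NKp46 it was at 34.2, 49.4 and 33.5 CPM in WT and 114, 150 and 136 CPM in DKO (1.77 ± 0.223, edgeR adjusted p = 2.7e-05). In DN it differed by 1.01 ± 0.218 (edgeR adjusted p = 0.009), with DKO libraries at 148, 143 and 138 CPM, and in ILC1 by 0.53 ± 0.217 (edgeR adjusted p = 0.29). In CCR6, therefore, Cdk6 rose together with Ccnd2 and Ccnd3, and in NKp46 and DN it rose while neither D cyclin passed. The second gene in CCR6 was Cdc25b, a phosphatase that activates Cdk1 (8.76, 11.1 and 11.5 CPM in DKO against 1.12, 1.41 and 4.71 CPM in WT, 2.11 ± 0.524, edgeR adjusted p = 0.02).

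Of 15 tested genes that restrain proliferation, 0, 1, 2 and 0 were called higher in the 4 populations in the same order, and 0 lower. Klf2, a factor of lymphocyte quiescence, was at 34, 38.4 and 33.9 CPM in DKO NKp46 and 13.6, 16.4 and 6.5 CPM in WT NKp46 (1.54 ± 0.348, edgeR adjusted p = 0.011), and differed by 1.34 ± 0.344 in CCR6 (edgeR adjusted p = 0.025). Btg1, an antiproliferative gene, was at 3140, 2900 and 2200 CPM in DKO CCR6 and 1550, 1700 and 1190 CPM in WT CCR6 (0.89 ± 0.162, edgeR adjusted p = 0.0013), and its genotype effect differed among the populations (edgeR adjusted p = 0.023). Genes that promote G1 passage (Ccnd2, Ccnd3, Cdk6) and genes that restrain division (Klf2, Btg1) were both higher in DKO CCR6.

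The same lists between NKp46 and CCR6 held genes of both kinds as well. In WT, 5 of 36 replication genes were called higher in NKp46 and 0 lower, among them Pole, the leading-strand polymerase (2.90 ± 0.688, edgeR adjusted p = 0.01), and Uhrf1, which guides maintenance methylation of DNA (2.05 ± 0.532, edgeR adjusted p = 0.02). Of 42 mitosis genes 3 were higher and 0 lower, first Spc24 of the kinetochore (2.76 ± 0.547, edgeR adjusted p = 0.0021). In DKO, 2 of 36 replication genes (Gmnn and Dut) and 9 of 42 mitosis genes were higher and 0 lower, first Racgap1 of the central spindle (1.28 ± 0.28, edgeR adjusted p = 0.0067). Myc, a driver of growth and division, was higher in NKp46 than in CCR6 by 1.73 ± 0.25 in both genotypes (edgeR adjusted p = 6.7e-05 in WT and 8.9e-05 in DKO), though ILC1 had the most of it (341, 208 and 390 CPM in WT ILC1 against 26.8, 32.1 and 26.7 CPM in WT NKp46 and 11.7, 8.31 and 5.86 CPM in WT CCR6). Cdkn1a, which encodes the kinase inhibitor p21, was the 1 gene called lower in NKp46 in both genotypes, at 74.2, 82.1 and 70.2 CPM in WT NKp46 and 203, 188 and 162 CPM in WT CCR6 (-1.29 ± 0.231, edgeR adjusted p = 0.00075) and by -0.948 ± 0.229 in DKO (edgeR adjusted p = 0.015).

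Libraries that shared the number 1 in the labels had high values of many of these genes. In each of the 8 groups library 1 held the highest value of more of the 36 genes other than the D cyclins than either other library, from 14 in WT ILC1 and 17 in WT CCR6 to 26 in WT DN and 30 in WT NKp46. The labels do not say what the number stands for. Without all 8 libraries numbered 1, the genes called between NKp46 and CCR6 were 6 in WT and 6 in DKO, and those called between DKO and WT were 0, 2, 2 and 2 in ILC1, NKp46, CCR6 and DN. In CCR6 the 10 replication genes summed to 516 to 769 CPM in DKO CCR6, all above the 434 to 459 CPM of WT CCR6. The 34 genes other than the D cyclins, Stmn1 and Hmgb2 summed to 658 to 967 CPM against 583 to 610 CPM. These 34 include the 10 replication genes, which made up most of the sum in every library. Mcm3, among the 10, was at 165, 102 and 101 CPM in DKO CCR6 and 53.4, 46.9 and 46 CPM in WT CCR6. Whether the sum over the 34 genes differs without Mcm3 was not tested. The 4 genes of deoxynucleotide supply (93 to 120 CPM in DKO CCR6, 104 to 111 CPM in WT CCR6) and the sum of Stmn1 and Hmgb2 (113 to 129 and 117 to 128 CPM) overlapped. In ILC1 the 34 genes summed to 915 to 1160 CPM in DKO and 602 to 881 CPM in WT, also without overlap, and in NKp46 (974 to 1520 CPM against 818 to 1410 CPM) and DN (852 to 1160 CPM against 661 to 872 CPM) the ranges overlapped.

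**Figure D5:**
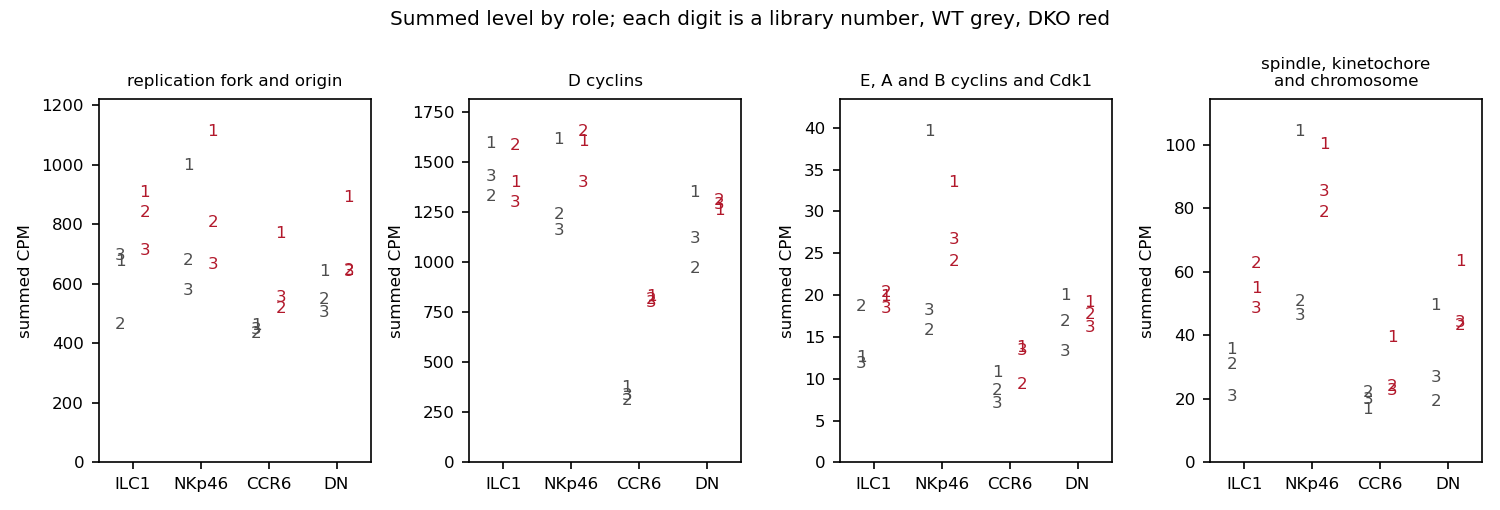
Summed level in CPM of the genes of each role by population (horizontal axis), with each library drawn as its number, WT in grey and DKO in red. Number 1 sits at or near the top of most groups for the replication and mitotic roles, and for D cyclins the WT CCR6 libraries (310 to 376 CPM) lie below all others.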

How the data were processed

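Bulk RNA-seq counts of 24 libraries in 8 groups of 3 were used. The deposited table holds whole-number read counts per Ensembl gene that the authors did not normalize, as its values show. Per the submitters' processing notes the tools were STAR 2.7.9a, featureCounts 2.0.3 of Subread, Salmon 1.5.2, bcl2fastq, R 4.1 and DESeq2, with build mm10. Not given in the sources used here were strandedness, multi-mapper handling and annotation version. The table has 55774 rows; IDs that stood on several (168 IDs, 455 rows) were reduced to 1 row each, for 55487 genes, and 0 value columns went unused.

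Counts were scaled by the trimmed mean of M values, filtered on expression by group and fitted with edgeR 4.0.16 in R 4.3.3, by quasi-likelihood with robust dispersions, on all 24 libraries with 1 mean per group (16 residual degrees of freedom, common biological coefficient of variation 0.573). Adjusted p-values are Benjamini-Hochberg values over the 21286 genes, and calls use 0.05. The standard error is the absolute log2 fold change over the square root of F. CPM values use the same scaling. The steps were checked on simulated data. Fold bounds take a floor of 3 counts over a group, and these and the 95% intervals cover counting error only, since no molecular identifiers are named. Totals of 12.8 to 84.4 (in 1e6 counts) set the precision of the rarest transcripts. Coordinates are from GENCODE mouse release M21 (GRCm38), promoters from RefSeq (GRCm38.p6).

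The members and lists were chosen with earlier results of these data known. Named with statistics are up to 6 called members per contrast by adjusted p and, in the genotype contrasts, Mki67, Top2a, Rrm2, Mcm5, Ccnb1, Ccnd2 and Ccnd3, and up to 3 called genes of each pathway list. Other members given with statistics were chosen after their values were seen. Replicate numbers are shared between groups, but the labels do not tie them to animals, so no block entered the model. Alternatives were DESeq2 size factors, DESeq2 1.42.0, no low count filter, only the compared groups, a replicate block, each library left out and, added after seeing the data, all libraries numbered 1 left out. Exons of 12 members overlap those of other genes, and 5 members have pseudogenes named after them.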

Additional observations from a re-analysis of the deposited data

Results flagged for a closer look

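One result met a rule for a closer look. The genotype effect on Ccnd2 differed among the 4 populations (edgeR's quasi-likelihood test of any difference, adjusted p = 2.2e-05): DKO libraries lay above WT libraries by 1.40 ± 0.114 on the log2 scale in CCR6 (3 of 3 libraries above all WT libraries) and differed by -0.12 ± 0.112 in ILC1, 0.225 ± 0.112 in NKp46 and 0.06 ± 0.112 in DN.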

How the results depend on the processing

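The higher Ccnd2 in DKO CCR6 was called in 13 of 13 alternatives (adjusted p from 1.2e-29 to 7.9e-05). In DKO against WT CCR6, Ccnd3 lost its call in 7 of 13, Mcm3 in 3 and Gins2 in 6, and Cdt1 in NKp46 in 8 of 13. Of 44 called fold changes 16 kept their call in every alternative and 0 changed sign, and 26 were not called. Over all alternatives of those 26, a call was gained with the same sign 7 times and the sign changed 20 times. In the other 304 cases the fold change stayed uncalled with the same sign. The causes of the changes were not tested. Fits that leave out libraries are also weaker tests, and counts over all genes under the alternatives are not given here.

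Genes of the 38 called under other settings were as follows. For DKO against WT in ILC1 (0), they were 1 with no low count filter, 4 by DESeq2, 1 with the replicate block and 0 to 1 with single libraries left out. In NKp46 (1) they were 0 with no filter, 2 by DESeq2, 0 with only the compared groups, 2 with the block, 2 without libraries numbered 1 and 0 to 2 with single libraries left out. In CCR6 (4) they were 8 with only the compared groups, 7 with the block, 2 without libraries numbered 1 and 1 to 4 with single libraries left out. In DN (0) they were 2 by DESeq2, 2 with only the compared groups, 3 with the block, 2 without libraries numbered 1 and 0 to 2 with single libraries left out. For any difference of genotype effects (1) single libraries gave 1 to 2.

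In WT, NKp46 against CCR6 (17) gave 6 without libraries numbered 1 and 5 to 17 with single libraries left out. NKp46 against DN (1) gave 2 with no filter, 4 by DESeq2, 3 with only the compared groups, 3 with the block, 3 with the block by genotype and 0 to 2. NKp46 against ILC1 (4) gave 8 by DESeq2, 0 with only the compared groups, 8 with either block and 3 to 7. ILC1 against CCR6 (11) gave 3 with only the compared groups, 7 without libraries numbered 1 and 5 to 9. ILC1 against DN (2) gave 0 with only the compared groups, 1 with the block, 1 without libraries numbered 1 and 0 to 3. DN against CCR6 (5) gave 9 by DESeq2, 10 with only the compared groups and 3 to 6. The last range in each sentence is that with single libraries left out, here and next.

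In DKO, NKp46 against CCR6 (9) gave 14 by DESeq2 and 2 to 12. NKp46 against DN (0) gave 3 by DESeq2, 3 with only the compared groups, 1 with the block, 2 with the block by genotype and 0 to 1. NKp46 against ILC1 (0) gave 1 with only the compared groups, 1 with the block and 0 with each single library left out. ILC1 against CCR6 (5) gave 10 with only the compared groups, 12 with the block, 9 with the block by genotype and 4 to 6. ILC1 against DN (2) gave 1 with DESeq2 size factors, 1 with no filter, 0 without libraries numbered 1 and 0 to 2. DN against CCR6 (2) gave 4 with only the compared groups, 4 with the block, 0 without libraries numbered 1 and 0 to 3.

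Sign changes occurred only in fold changes of DKO against WT that were not called. With single libraries left out, Rrm2 in ILC1 ran from -0.0627 to 1.41, Ccnd3 in ILC1 from -0.107 to 0.395, Mcm5 in NKp46 from -0.203 to 0.646, Ccnb1 in NKp46 from -0.833 to 0.553, Mki67 in CCR6 from -0.218 to 0.519, Rrm2 in DN from -0.313 to 0.345, Ccnb1 in DN from -0.0199 to 0.762 and Ccnd2 in DN from -0.0234 to 0.188. Ccnb1 in NKp46 was 0.00175 with DESeq2 size factors and 0.0019 by DESeq2. Mki67 in CCR6 was -0.0998 with the block and -0.39 without libraries numbered 1, and Rrm2 in DN 0.0197 and 0.254.

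The replicate numbers were not taken as a pairing, since the labels do not tie them to animals. Deviations of same-numbered libraries of a genotype correlated from -0.0265 to 0.0774 (36 pairs, median 0.0368, 0 over 0.1). Those of different-numbered libraries of a genotype correlated from -0.0966 to 0.0468 (72 pairs, median -0.0175). Of 24 libraries 21 correlated best with their own number, a hint from the data and not the design. Depth limits the rarest transcripts: 8 genes had 0 counts in a library.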
